A study of Mus musculus with 69 samples.

Results

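Genes that make or regulate a clot and its removal were described in bone marrow-derived macrophages (BMDMs), which are macrophages grown from mouse bone marrow. The genes are the transglutaminases Tgm2 and F13a1, the coagulation genes F3, F7 and F10, the plasminogen activation genes Plau, Plaur and Serpinb2, and the matrix genes Thbs1 and Fn1. They were chosen by symbol, with earlier results of these data known. All 10 were found among the 24537 genes of each expression table and among the 24527 genes of both F1 tables. Poly(A) RNA had been sequenced from BMDMs of the strains C57 (C57BL/6J), BALB (BALB/cJ), NOD (NOD/ShiLtJ), PWK (PWK/PhJ) and SPRET (SPRET/EiJ), with 3 untreated (basal) libraries and 3 from cells given IL-4 for 24 hours in each strain, except for 2 basal PWK libraries. A separate time course had 2 libraries each of C57 and SPRET at 0, 1, 6 and 24 hours of IL-4, and a further one had 2 each of Egr2WT (Egr2 fl/fl) and Egr2MKO (LyzM-Cre Egr2 fl/fl) at the same times. Cells of F1 mice, C57xSPRET and C57xNOD, gave 2 basal and 2 IL-4 libraries each. Mice were 8 to 12 weeks old, marrow was cultured for 7 days with M-CSF in all groups, and IL-4 was given at 20 ng/ml. Egr2WT carries the floxed alleles without Cre, and in Egr2MKO the Cre is driven by the LyzM gene of myeloid cells, so that deletion is limited to the cells in which it acts.

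Blood clots when tissue factor (F3) on a cell surface binds factor VII (F7), the complex activates factor X (F10), and thrombin formed in turn makes fibrin, which factor XIII (F13a1 encodes its catalytic A subunit) cross-links. Urokinase (Plau), held on the cell by its receptor (Plaur), turns plasminogen into plasmin, which dissolves fibrin, and PAI-2 (Serpinb2) is an inhibitor of urokinase. IL-4 drives macrophages to an alternatively activated state in which Tgm2, a transglutaminase that cross-links proteins, and fibronectin (Fn1) are well-known induced genes.

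Depth ran from 4.69 M to 32.9 M tags per library (M, 1e6). Summed over 7 macrophage markers, levels were 9325 to 53701 TPM (transcripts per 1e6 transcripts) in the 61 libraries of the 3 expression tables. PWK was lowest, at 9625 to 9741 TPM basal and 9325 to 9629 TPM after IL-4, against at least 16578.5 TPM in the other 5 strains groups. Summed over 6 neutrophil markers, PWK was at 25.8 TPM basal and 18.3 to 21.1 TPM after IL-4, against at most 11.2 TPM in those groups. The part of either in the PWK results was not tested. Gp9, Gp1bb and Gp5, markers of platelets, stayed under 1.5 TPM. Ppbp reached 8.92, 10.3 and 8.06 TPM and Itga2b 1.67, 2.82 and 1.88 TPM in the 5 strains, time course and Egr2 tables. The 6 platelet markers together reached 482 TPM, nearly all of it Pf4, a chemokine gene that macrophages can also express. Among 6 stromal markers the sum was 204 to 212 TPM in basal PWK and 106 to 113 TPM after IL-4, against at most 16.7 TPM in the other strains. Nearly all of it was Dcn. Pdgfra and Lum were also higher in PWK, at 1.37 to 2.33 TPM and 0.678 to 2.18 TPM, against at most 0.448 and 0.301 TPM in the other strains. Col1a1, Col1a2 and Col3a1 were under 1 TPM in every library. Egr2, the deleted gene, was at 23.6 and 21.3 TPM in basal Egr2WT and 0.859 and 0.854 TPM in basal Egr2MKO, and after IL-4 at 75.6 to 101 TPM against 3.1 to 7.05 TPM. Some Egr2MKO libraries stood apart from the rest of their table. Alox15 was at 37.6 and 0.173 TPM in Egr2MKO replicates 1 and 2 at 1 hour and at 19.6 and 80.3 TPM at 6 hours, against at most 0.89 TPM in the 13 other libraries of the table, and Prg4 moved with it (24.0 and 1.65 TPM, then 7.42 and 51.4 TPM). Both are among 8 markers of peritoneal macrophages that were listed after these libraries had been seen. Gata6, the factor that defines those macrophages, was at 0.626 TPM in Egr2MKO 1-hour replicate 1 and at 0.402 and 2.13 TPM at 6 hours. The 13 other libraries had at most 0.658 TPM of it. Timd4, Cxcl13, Vsig4, Selp and Icam2, also among the 8, were higher in each library that stood apart than in the 13 others. In 6-hour replicate 2 they were at 7.06, 10.3, 11.9, 11.9 and 24.6 TPM, against at most 0.17, 0.152, 1.47, 0.914 and 10.981 TPM. Both 6-hour Egr2MKO libraries were among those that stood apart, so that no 6-hour comparison could be made without both, and their part in the 6-hour results was not tested. In bulk RNA, fewer cells of a type and less RNA per cell cannot be told apart.

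Expression was tested as log2(TPM + 1), so that changes of low genes are understated, with limma and p-values adjusted over all genes of a table. Called means a change over 2-fold together with an adjusted p under 0.05, and rose or fell is written where the adjusted p is under 0.05. After 24 hours of IL-4, 6 of the 10 genes were called in C57 (5 higher and 1 lower), against 3.80% of all 11907 genes tested. In BALB 5 were called (3 higher, 2 lower; 2.08% of all genes), in NOD none (1.19%), in PWK 3 (2 higher, 1 lower; 2.08%) and in SPRET 6 (5 higher, 1 lower; 3.94%). At an adjusted p under 0.05 without the fold limit, Tgm2, F7 and F10 still rose in NOD, and 6 of its 10 genes had an unadjusted p under 0.05. In C57 the median log2 fold change of the 10 genes was 0.98, beside -0.038 over all genes tested, and in SPRET 0.90 beside 0.11. The other medians were 0.32 for BALB, 0.36 for PWK and 0.14 for NOD, against -0.11, 0.084 and 0.12. Because the genes were chosen with earlier results known, their shares and medians beside those of all genes are a description and no test of the group. Tgm2, F7 and F10 rose in all 5 strains, whereas Thbs1 went in opposite directions in C57 and BALB.

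**Figure D1:**
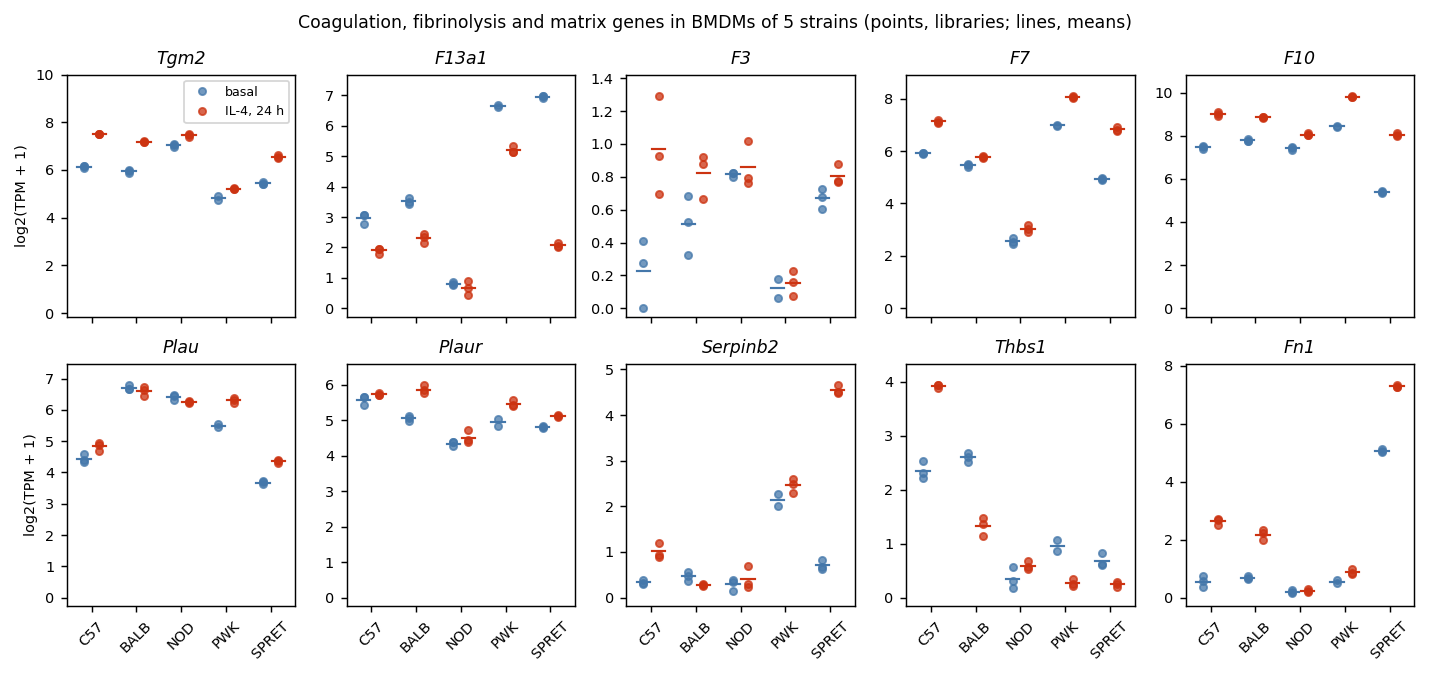
Expression of the 10 genes as log2(TPM + 1) in each library of the 5 strains, basal in blue and after 24 hours of IL-4 in red, with a line at each group mean and a separate vertical scale for each gene. F13a1 in SPRET drops from a basal mean of 123 TPM to 3.19 TPM, Thbs1 is higher with IL-4 in C57 and lower in BALB, and Fn1 and Serpinb2 after IL-4 are far higher in SPRET than elsewhere.

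Tgm2 (chr2:158116405-158146392, minus strand, mm10) encodes transglutaminase 2. In C57 it was at 70.9, 71.2 and 67.4 TPM in the basal libraries and at 181, 182 and 182 TPM after IL-4 (log2 fold change 1.37, SE 0.046, adjusted p = 6.3e-18). BALB and SPRET rose from 63.9, 58.5 and 60.4 TPM to 148, 142 and 141 TPM and from 41.3, 43.5 and 42.1 TPM to 92.6, 90.9 and 96.7 TPM, by log2 fold changes of 1.23 and 1.12. The rise was smaller in NOD, from 125, 131 and 137 TPM to 178, 167 and 182 TPM (log2 fold change 0.42, SE 0.046, adjusted p = 1.8e-07), and in PWK, from 26.1 and 29.2 TPM to 35.4, 37.0 and 36.3 TPM (log2 fold change 0.38, SE 0.052, adjusted p = 4e-06). Basal and IL-4 libraries did not overlap in any strain. NOD had the highest basal level, and after IL-4 the levels of C57 and NOD did not differ beyond their spread (adjusted p = 0.37). The response was smaller than in C57 in NOD (difference -0.95, SE 0.066, adjusted p = 5.5e-11) and PWK (difference -0.99, SE 0.07, adjusted p = 1.5e-10), both just under 2-fold. Medians of these differences over all genes tested were 0.17 in NOD and 0.13 in PWK. With median-ratio scaling, which moves the values of all genes, the medians were -0.017 and -0.0091.

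F13a1 (chr13:36867178-37049213, minus strand) fell in 4 strains, and not in NOD. SPRET libraries were at 119, 124 and 126 TPM under basal conditions and at 3.04, 3.14 and 3.38 TPM after IL-4 (log2 fold change -4.89, SE 0.1, adjusted p = 1.7e-22). PWK started almost as high, at 97.7 and 102 TPM, and kept 39.6, 33.9 and 34.5 TPM (log2 fold change -1.45, SE 0.11, adjusted p = 2.4e-10). These were the 2 highest basal strains, and with IL-4 SPRET ended near C57 while PWK stayed above every other strain. In C57 the gene went from 5.75, 7.43 and 7.32 TPM to 2.87, 2.87 and 2.47 TPM (log2 fold change -1.06, SE 0.1, adjusted p = 3.6e-09) and in BALB from 11.3, 10.3 and 9.68 TPM to 4.41, 3.43 and 4.12 TPM (log2 fold change -1.20, SE 0.1, adjusted p = 7.8e-10). NOD was under 1 TPM throughout, with 0.828, 0.682 and 0.726 TPM and 0.357, 0.848 and 0.576 TPM, and the groups overlapped (adjusted p = 0.29). After IL-4 the levels of SPRET and C57 did not differ beyond their spread (adjusted p = 0.14). The fall in SPRET exceeded that in C57 (difference -3.82, SE 0.14, adjusted p = 2.9e-16).

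Among the coagulation genes, F10 (chr8:13037308-13056676, plus strand) rose in every strain and was the most abundant of the 10 genes after IL-4. It went from 178, 167 and 181 TPM to 476, 510.5 and 549 TPM in C57 (log2 fold change 1.54, SE 0.05, adjusted p = 2.6e-18). In SPRET, whose basal level was lowest, it went from 40.5, 42.0 and 39.9 TPM to 256, 257 and 275 TPM (log2 fold change 2.66, SE 0.05, adjusted p = 4.7e-23). PWK had the highest levels, 354 and 337 TPM and 879, 923 and 895 TPM. Treated SPRET thus reached the level of treated NOD, 279, 258 and 257 TPM, and these 2 groups did not differ beyond their spread (adjusted p = 0.86). Log2 fold changes were 1.06 in BALB, 1.38 in PWK and 0.64 in NOD, all with basal and IL-4 libraries apart. The response in SPRET exceeded that in C57 (difference 1.12, SE 0.071, adjusted p = 5.2e-12).

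F7 (chr8:13026034-13035805) is the neighbour of F10 on the same strand, with 1502 bases between the end of F7 and the start of F10. It was at 58.8, 60.3 and 59.1 TPM in basal C57 and 138, 145 and 134 TPM after IL-4 (log2 fold change 1.21, SE 0.06, adjusted p = 1.4e-14). SPRET rose from 29.5, 30.2 and 28.98 TPM to 107, 111 and 119 TPM (log2 fold change 1.89, SE 0.06, adjusted p = 1.1e-18) and PWK from 128 and 124 TPM to 265, 275 and 262 TPM (log2 fold change 1.08, SE 0.067, adjusted p = 4e-12). In BALB the rise was small, from 41.3, 44.2 and 42.7 TPM to 54.7, 51.8 and 54.1 TPM (log2 fold change 0.32). NOD stood far below the other strains, at 4.71, 4.49 and 5.48 TPM and then 7.15, 6.53 and 8.07 TPM (log2 fold change 0.48). The 250 bases before the starts of both genes are shown because the genes lie side by side and both rose. Matches were sought on both strands for EGR (GCGNGGGCG), STAT6 (TTC and GAA with any 4 bases between), STAT (TTCNNNGAA), AP-1 (TGANTCA) and PU.1 (GAGGAAG), of which 4.7%, 5.85%, 7.02%, 6.75% and 10.6% of 32851 mouse promoters of this length held at least 1. The promoters are from RefSeq on GRCm38.p6, the plus strand, at chr8:13025784-13026033 for F7 and chr8:13037058-13037307 for F10, and neither holds a match, so all letters are in lower case.
F7: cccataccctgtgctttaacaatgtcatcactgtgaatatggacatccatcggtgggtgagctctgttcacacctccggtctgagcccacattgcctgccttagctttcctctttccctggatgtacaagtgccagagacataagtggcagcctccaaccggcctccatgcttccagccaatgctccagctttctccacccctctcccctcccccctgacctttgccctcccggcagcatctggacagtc
F10: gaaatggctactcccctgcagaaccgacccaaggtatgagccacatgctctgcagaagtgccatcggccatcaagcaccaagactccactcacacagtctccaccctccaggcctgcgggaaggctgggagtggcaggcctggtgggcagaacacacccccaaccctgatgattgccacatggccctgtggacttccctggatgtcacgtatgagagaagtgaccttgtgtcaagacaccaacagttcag

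F3 (chr3:121723537-121735052, plus strand), the tissue factor gene, was low in these libraries. It did not exceed 1.45 TPM, and 1 basal C57 library was listed at 0. Only in C57 did it pass the test, from 0.329, 0 and 0.212 TPM to 0.898, 0.619 and 1.45 TPM (log2 fold change 0.74, SE 0.13, adjusted p = 3.8e-05), without being called. In the other strains the libraries lay at 0.045 to 1.03 TPM, and PWK was at or under 0.169 TPM.

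Plau and Plaur, the genes of urokinase and its receptor, did not reach 2-fold in any strain. Plau (chr14:20836662-20843388, plus strand) was at 19.9, 23.1 and 19.1 TPM in basal C57 and at 28.5, 30.0 and 25.0 TPM after IL-4 (log2 fold change 0.41, SE 0.074, adjusted p = 8.2e-05), and it rose in PWK, from 45.7 and 42.6 TPM to 82.2, 78.9 and 74.2 TPM (log2 fold change 0.81, SE 0.083, adjusted p = 3.4e-08), and in SPRET (log2 fold change 0.69). In BALB and NOD it did not pass the test (-0.10 and -0.16), and these strains had the highest basal levels, at 110.1, 100.5 and 99.8 TPM and 78.3, 88.3 and 85.5 TPM. Plaur (chr7:24462483-24475968, plus strand) rose in BALB, from 30.9, 32.3 and 33.9 TPM to 53.3, 62.9 and 56.6 TPM (log2 fold change 0.81, SE 0.079, adjusted p = 1.1e-08), and less in PWK (0.53) and SPRET (0.31). In SPRET the value was 0.17 with median-ratio scaling and no longer passed (adjusted p = 0.12).

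Serpinb2 (chr1:107511510-107525600, plus strand) was called only in SPRET. It was at 0.6, 0.763 and 0.536 TPM in basal SPRET and 21.3, 21.5 and 24.2 TPM after IL-4 (log2 fold change 3.84, SE 0.11, adjusted p = 3e-19). In C57 it went from 0.314, 0.255 and 0.236 TPM to 0.923, 0.861 and 1.29 TPM (log2 fold change 0.67, SE 0.11, adjusted p = 4.2e-05), and in PWK it was at 3.82 and 3.01 TPM and 4.57, 5.06 and 3.89 TPM, with groups that did not overlap but did not pass the test (adjusted p = 0.07). BALB and NOD stayed under 0.62 TPM. No other strain reached the treated SPRET libraries, and the response there exceeded that in C57 (difference 3.17, SE 0.16, adjusted p = 9.4e-14).

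Thbs1 (chr2:118111876-118127133, plus strand), thrombospondin 1, is a secreted adhesive glycoprotein that platelets also store. C57 was the only strain in which it rose, from 3.62, 4.81 and 3.97 TPM to 14.4, 14.3 and 13.8 TPM (log2 fold change 1.57, SE 0.1, adjusted p = 4.8e-12). It fell in BALB, from 5.41, 4.72 and 5.07 TPM to 1.78, 1.58 and 1.2 TPM (log2 fold change -1.27, SE 0.1, adjusted p = 5.4e-10). The basal groups of C57 and BALB did not differ beyond their spread (adjusted p = 0.061, and 0.017 without C57 basal replicate 2), whereas the treated groups were far apart. PWK and SPRET fell from 1.08 and 0.817 TPM and 0.548, 0.526 and 0.767 TPM to 0.191, 0.276 and 0.163 TPM and 0.223, 0.189 and 0.147 TPM (log2 fold changes -0.69 and -0.44), and in NOD it did not pass (0.127 to 0.479 TPM, then 0.447 to 0.603 TPM; log2 fold change 0.25, adjusted p = 0.069), but did without basal replicate 3 (adjusted p = 0.016). The sum of the platelet markers named above was higher after IL-4 in C57 (283 to 307 TPM, then 422 to 482 TPM) and in BALB (143 to 159 TPM, then 170.0 to 192 TPM). The sum was also higher after IL-4 in PWK (42.0 to 42.4 TPM, then 76.2 to 80.0 TPM) and SPRET (8.82 to 10.1 TPM, then 84.5 to 88.1 TPM). Its part in the Thbs1 results was not tested.

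Fn1 (chr1:71585473-71653234, minus strand), fibronectin, was called in C57, BALB and SPRET, from very different starting points. It was at 32.4, 31.6 and 33.8 TPM in basal SPRET and 154, 153 and 161 TPM after IL-4 (log2 fold change 2.22, SE 0.092, adjusted p = 2.3e-16). In C57 it rose from 0.283, 0.666 and 0.477 TPM to 5.62, 4.73 and 5.44 TPM (log2 fold change 2.09, SE 0.092, adjusted p = 1.2e-15) and in BALB from 0.593, 0.559 and 0.683 TPM to 4.03, 2.94 and 3.65 TPM (log2 fold change 1.49, SE 0.092, adjusted p = 2.4e-12). Every library of the other strains was below the untreated SPRET libraries. Summed stromal markers, of cells that also make fibronectin, were at 5.26 to 5.93 TPM in basal SPRET and 4.04 to 4.23 TPM after IL-4, beside 4.84 to 5.91 TPM and then 3.89 to 4.70 TPM in C57, and their part in the result was not tested. In NOD it stayed at 0.106 to 0.231 TPM with overlapping groups, and in PWK it rose slightly, from 0.51 and 0.422 TPM to 0.994, 0.788 and 0.764 TPM (log2 fold change 0.33, SE 0.1, adjusted p = 0.019), a change that did not pass without PWK IL-4 replicate 1 (0.28, adjusted p = 0.079) or basal replicate 2 (0.29, adjusted p = 0.17).

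Under basal conditions, 1 of the 10 genes was called between BALB and C57 (4.81% of all genes tested), 5 between NOD and C57 (16.9%), 6 between PWK and C57 (13.3%) and 4 between SPRET and C57 (18.1%). Plau was higher than in C57 in BALB, NOD and PWK (differences 2.27, 1.97 and 1.06, on the log2 scale), and it was the gene called in BALB. NOD was lower for F7 (difference -3.36, SE 0.06, adjusted p = 6.7e-24), F13a1 (-2.16), Thbs1 (-2.01) and Plaur (-1.23). PWK was higher for F13a1 (3.69), Serpinb2 (1.79) and F7 (1.07) and lower for Tgm2 (-1.31) and Thbs1 (-1.39). SPRET was higher for Fn1 (difference 4.52, SE 0.092, adjusted p = 1.8e-23) and F13a1 (3.99) and lower for F10 (-2.08) and Thbs1 (-1.67). In NOD the median of all genes tested lay at -0.30 against C57, and with median-ratio scaling, which moves that median to 0, F10 in NOD went from -0.048 (adjusted p = 0.39) to 0.35 (adjusted p = 5.3e-05). All of the strain comparisons share the C57 libraries.

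Differences in response from C57 were called for Thbs1 in BALB (difference -2.84, SE 0.15, adjusted p = 1.1e-12; 1.49% of all genes tested), and for Thbs1 (-1.32) and Fn1 (-2.05) in NOD (2.47%). The same 2 genes were called in PWK (Thbs1 -2.25, Fn1 -1.76; 2.26%). In SPRET, 4 genes were called, Thbs1 (-2.01), F13a1, F10 and Serpinb2 (values given with each gene; 3.45%). Fn1 responded by nearly the same log2 amount in SPRET and C57 (difference 0.13, adjusted p = 0.46), but this rests on the pseudocount, since with 0.1 TPM in place of 1 TPM the difference was -1.02 (adjusted p = 0.0051).

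**Figure D2:**
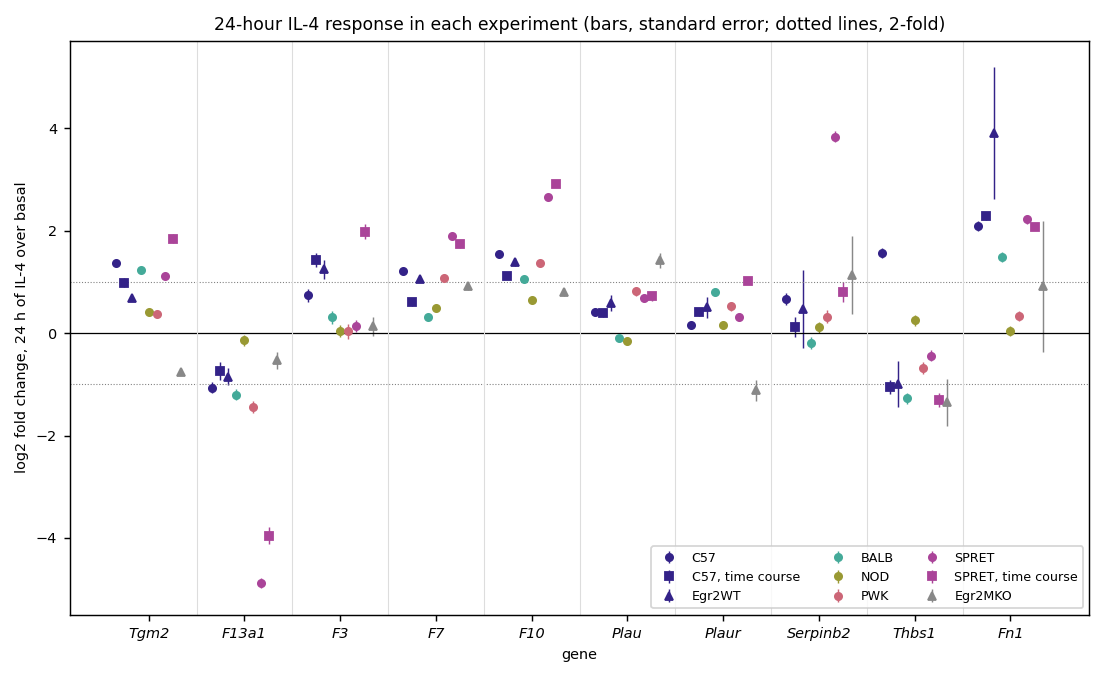
Log2 fold change of each gene after 24 hours of IL-4 over basal in 9 groups, on the log2(TPM + 1) scale, with standard errors as bars and 2-fold marked by dotted lines; circles are the 5 strains, squares the time course and triangles the Egr2 table. Thbs1 lies at 1.57 in C57 of the 5 strains and below 0 in C57 of the time course, and F13a1 in SPRET lies below -3.9 in both experiments.

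In the time course, which was tabulated and normalized apart from the 5 strains, so that levels are not compared between them by a test, the C57 libraries had 1 gene called at 1 hour (0.877% of the 12088 genes tested), 1 at 6 hours (2.13%) and 4 at 24 hours (5.76%). SPRET had 1, 5 and 8 (1.89%, 4.57% and 5.62%). Under basal conditions, 6 genes were called between SPRET and C57 (18.8%). The 6 were Fn1 (5.25), F13a1 (3.84) and Thbs1 (2.41), higher in SPRET, and Plau (-1.70), Plaur (-1.27) and Tgm2 (-1.23), lower. Response differences between SPRET and C57 were called for 1 gene at 1 hour (0.811%), 3 at 6 hours (2.40%) and 3 at 24 hours (6.22%).

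Serpinb2 was the 1 gene called at 1 hour in each strain. In SPRET it was at 2.44 and 1.7 TPM at 0 hours, 55.2 and 47.9 TPM at 1 hour (log2 fold change 4.105, SE 0.19, adjusted p = 2.1e-08), 20.8 and 19.5 TPM at 6 hours and 4.14 and 4.51 TPM at 24 hours. The 1-hour libraries were thus the highest and the gene then came down. C57 had 1.08 and 0.371 TPM, 2.42 and 2.85 TPM, 0.388 and 0.812 TPM and 0.849 and 0.809 TPM, with a rise at 1 hour (log2 fold change 1.10, SE 0.19, adjusted p = 0.0042) that did not pass without IL-4 replicate 2 (1.02, adjusted p = 0.052) or without basal replicate 2 (0.80, adjusted p = 0.051). The response was larger in SPRET at 1 hour (difference 3.00, SE 0.27, adjusted p = 6.1e-05) and at 6 hours (difference 2.88, SE 0.27, adjusted p = 2.7e-05). At 24 hours SPRET was at 4.14 and 4.51 TPM here and at 21.3, 21.5 and 24.2 TPM in the 5 strains. The Serpinb2 promoter is shown because it holds both a STAT and an AP-1 match. It lies at chr1:107511260-107511509 on the plus strand of GRCm38.p6 (RefSeq), with the AP-1 letters TGAATCA 181 bases and the STAT letters TTCCAAGAA 77 bases before the start, in capitals. The Egr2 and F1 C57xNOD tables list the gene from chr1:107511423, a start inside this window. The AP-1 letters lie before that start and the STAT letters after it.
Serpinb2: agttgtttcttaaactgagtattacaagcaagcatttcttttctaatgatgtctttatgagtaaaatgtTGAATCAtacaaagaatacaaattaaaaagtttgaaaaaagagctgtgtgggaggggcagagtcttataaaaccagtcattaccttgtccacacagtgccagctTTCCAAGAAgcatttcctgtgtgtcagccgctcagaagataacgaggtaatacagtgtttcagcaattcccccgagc

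F13a1 fell only after 1 hour in SPRET. SPRET libraries were at 77.6 and 87.6 TPM at 0 hours, 109.7 and 100.3 TPM at 1 hour, 31.1 and 35.3 TPM at 6 hours and 4.79 and 4.01 TPM at 24 hours. The 1-hour libraries lay above the basal ones, and those at 6 and 24 hours below them. Changes from 0 hours were -1.29 at 6 hours (adjusted p = 8.3e-05) and -3.95 at 24 hours (adjusted p = 3.5e-09). In C57, at 1.88 to 5.2 TPM over all times, it fell by 24 hours (log2 fold change -0.74, SE 0.17, adjusted p = 0.004), and the 24-hour response differed between the strains (difference -3.21, SE 0.24, adjusted p = 1.3e-06).

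F10 and F7 rose at 6 hours in both strains. F10 in SPRET was at 85.7 and 87.8 TPM, 109 and 115 TPM, 434 and 424 TPM and 669.9 and 658 TPM at 0, 1, 6 and 24 hours (log2 fold changes 0.36, 2.29 and 2.92). C57 had 124 and 121 TPM, 117 and 119.9 TPM, 223 and 228 TPM and 266 and 272 TPM, and the response in SPRET was larger at 6 hours (difference 1.42, SE 0.057, adjusted p = 4.8e-08) and 24 hours (difference 1.80, SE 0.057, adjusted p = 2.6e-09). SPRET began below C57 and ended above it. F7 followed, with 68.4 and 65.8 TPM at 0 hours and 238 and 217 TPM at 24 hours in SPRET against 73.2 and 76.6 TPM and 111 and 119 TPM in C57 (difference 1.13, SE 0.11, adjusted p = 1.4e-05).

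F3 rose at 24 hours in both strains. In C57 it was at 1.03 and 0.779 TPM at 0 hours and 4.6 and 3.68 TPM at 24 hours (log2 fold change 1.43, SE 0.14, adjusted p = 7e-06), and in SPRET at 0.943 and 0.844 TPM and 6.76 and 6.23 TPM (log2 fold change 1.98, SE 0.14, adjusted p = 3.6e-07). In SPRET the 6-hour libraries, at 2.07 and 2.33 TPM, already lay above the basal ones, whereas those of C57 did not, at 0.763 and 0.568 TPM (difference 0.95, SE 0.2, adjusted p = 0.0099). The SPRET rise was not seen in the 5 strains (log2 fold change 0.14, adjusted p = 0.4).

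Tgm2 rose at 6 and 24 hours in both strains, and in SPRET from 29.04 and 30.0 TPM through 55.8 and 49.4 TPM at 6 hours to 114 and 104 TPM at 24 hours (log2 fold change 1.85, SE 0.088, adjusted p = 9.7e-09), against 0.99 in C57 (adjusted p = 2.4e-06). Plaur dipped before it rose. C57 was at 125 and 126 TPM at 0 hours, 83.0 and 72.7 TPM at 6 hours (-0.68, adjusted p = 6.5e-06) and 162 and 171 TPM at 24 hours (0.40, adjusted p = 0.00022), while SPRET dipped at 1 hour, to 33.6 and 32.2 TPM from 52.5 and 50.3 TPM, and reached 106 and 103 TPM at 24 hours (log2 fold change 1.01, SE 0.062, adjusted p = 7.2e-08; 0.99, under 2-fold, without 24-hour replicate 1). Plau was highest at 6 hours in C57, at 126 and 136 TPM from 67.7 and 71.2 TPM (log2 fold change 0.90), and rose by 0.84 in SPRET. It rose at all 3 times in both strains, without reaching 2-fold.

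Thbs1 in the time course went the other way than in C57 of the 5 strains. C57 libraries were at 3.11 and 3.4 TPM at 0 hours, 3.09 and 3.01 TPM at 1 hour, 1.13 and 1.37 TPM at 6 hours and 1.11 and 1 TPM at 24 hours (log2 fold change -1.05, SE 0.13, adjusted p = 4.9e-05). SPRET was at 20.3 and 22.8 TPM, 21.8 and 21.5 TPM, 1.84 and 2.89 TPM and 8.4 and 7.77 TPM, lowest at 6 hours (log2 fold change -2.76, SE 0.13, adjusted p = 1e-08). The basal order of the strains was also the other way round, with SPRET above C57 here (difference 2.41, SE 0.13, adjusted p = 9.2e-09) and below it in the 5 strains. The direction of the 24-hour change in C57 thus depended on the experiment, and the libraries of each experiment were apart. Experiment and table cannot be told apart here.

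Fn1 was the most abundant of the 10 genes in treated SPRET of the time course. SPRET rose from 239 and 272 TPM to 467 and 477 TPM at 6 hours and 1146 and 1016 TPM at 24 hours (log2 fold change 2.08, SE 0.071, adjusted p = 4.4e-10). C57 rose from 5.67 and 5.74 TPM to 14.0 and 14.6 TPM and 31.8 and 31.7 TPM (log2 fold change 2.29, SE 0.071, adjusted p = 2.7e-10). At 1 hour the change passed the test in neither strain (log2 fold changes -0.10 and 0.12). Summed stromal markers were at most 2.59 TPM in this table.

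**Figure D3:**
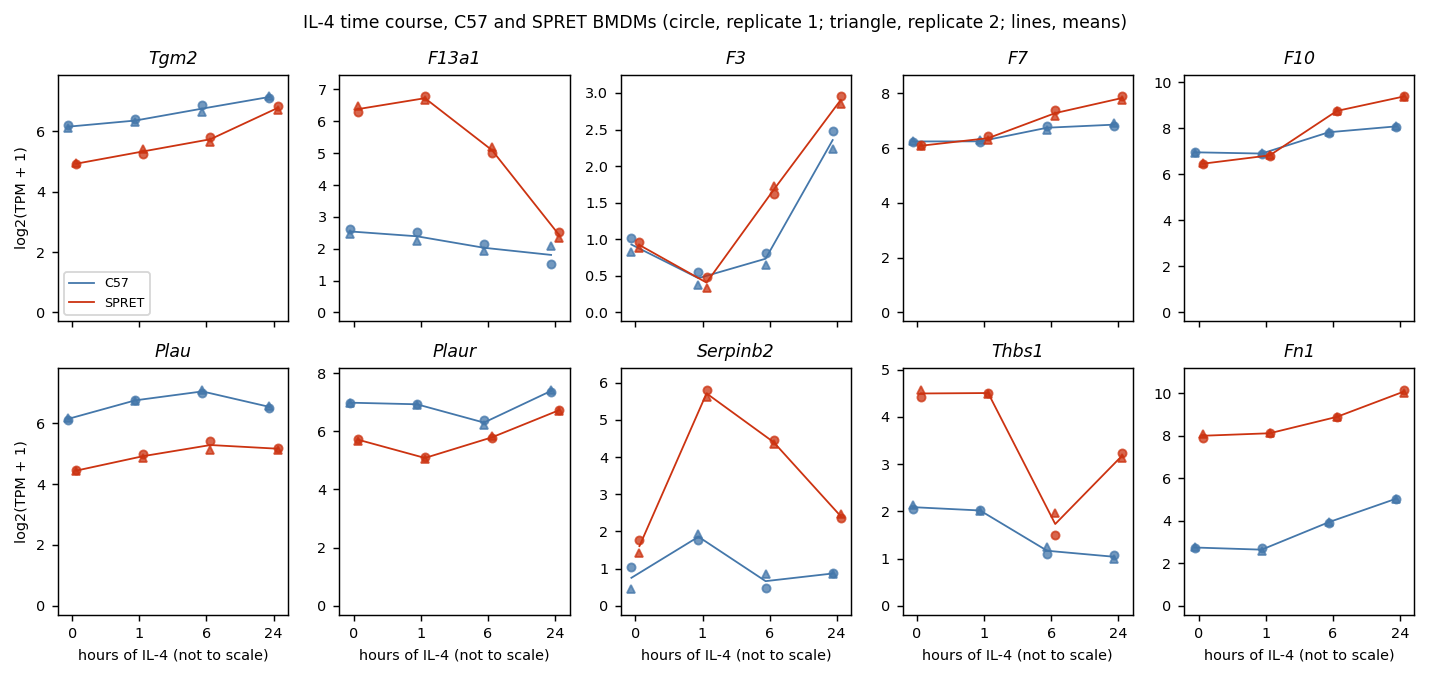
Expression of the 10 genes as log2(TPM + 1) at 0, 1, 6 and 24 hours of IL-4 in C57 (blue) and SPRET (red), with 2 libraries per point shown as a circle and a triangle and a line through the means. Serpinb2 in SPRET peaks at 1 hour near 50 TPM, F13a1 in SPRET falls after 1 hour, and F3 rises at 24 hours in both strains.

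In the Egr2 table, the comparison asks which of these responses differ between Egr2WT and Egr2MKO. Only Egr2MKO carries the Cre, so that loss of the transcription factor Egr2 and presence of the Cre cannot be told apart. Egr2WT had none of the 10 genes called at 1 hour (0.778% of the 12079 genes tested; Plau passed an adjusted p under 0.05, and 2 genes an unadjusted one), 1 at 6 hours (2.86%) and 4 at 24 hours (4.35%), and Egr2MKO had none (0.902%; again Plau passed, and 2 genes without adjustment), 4 (3.70%) and 3 (4.83%). Between the genotypes none was called under basal conditions (0.853%) or at 1 hour (1.06%), with 4 lower in Egr2MKO at an adjusted p under 0.05 in each, and 5 and 6 at an unadjusted one. At 6 hours 3 were called (2.30%) and at 24 hours 3 (4.55%). Response differences between the genotypes were called for none at 1 hour (0.00828%; 0 at an unadjusted p under 0.05) and 6 hours (0.207%; 4 unadjusted, of which Tgm2 passed with adjustment) and for Tgm2, F3 and Plaur at 24 hours (1.90%).

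Tgm2 moved in opposite directions in the 2 genotypes. Egr2WT was at 68.0 and 70.5 TPM at 0 hours, 79.9 and 81.3 TPM at 6 hours and 114 and 109 TPM at 24 hours (log2 fold change 0.68, SE 0.052, adjusted p = 9.6e-07). Egr2MKO was at 62.2 and 65.7 TPM, 49.9 and 54.7 TPM and 36.9 and 38.3 TPM (log2 fold change -0.75, SE 0.052, adjusted p = 3.2e-07). The genotypes did not differ beyond their spread under basal conditions (adjusted p = 0.21) and were far apart at 24 hours. The 24-hour responses differed (difference -1.43, SE 0.073, adjusted p = 1e-06).

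Plaur was lower in Egr2MKO at every time. Egr2WT was at 72.4 and 70.2 TPM, 55.9 and 56.8 TPM, 35.8 and 43.3 TPM and 103 and 101 TPM at 0, 1, 6 and 24 hours, and Egr2MKO at 39.3 and 42.7 TPM, 31.0 and 27.2 TPM, 13.4 and 19.8 TPM and 14.0 and 24.0 TPM. Both genotypes were lowest at 6 hours or close to it, and at 24 hours the Egr2WT libraries lay above their basal ones (log2 fold change 0.51, adjusted p = 0.085) and the Egr2MKO libraries below theirs. Differences between the genotypes were -0.78, -0.93, -1.22 and -2.41 (adjusted p = 0.028, 0.011, 0.0014 and 2.5e-06). Without Egr2MKO 6-hour replicate 1 the 6-hour difference was -0.96, under 2-fold, and without replicate 2 it was -1.49. The basal difference did not pass without any 1 of the 4 basal libraries (adjusted p 0.099 to 0.16). At 1 hour it did not pass without either Egr2WT library or Egr2MKO replicate 2 (adjusted p 0.062 to 0.094). In Egr2MKO the gene fell by 24 hours (log2 fold change -1.12, and -0.75 without 24-hour replicate 1). The 24-hour responses differed (difference -1.63, SE 0.29, adjusted p = 0.0032).

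F3 was at 0.146 and 0 TPM in basal Egr2WT and 1.57 and 1.51 TPM at 24 hours (log2 fold change 1.25, SE 0.19, adjusted p = 0.00033). In Egr2MKO it was at 0.05 and 0 TPM and 0.146 and 0.098 TPM, with no library of any time above 0.146 TPM. At 24 hours the genotypes were apart (difference -1.18, SE 0.19, adjusted p = 0.00045). The difference in response (difference -1.12, SE 0.27, adjusted p = 0.018) did not pass without Egr2WT basal replicate 2, Egr2MKO basal replicate 1 or 2, or Egr2MKO 24-hour replicate 2 (adjusted p 0.054 to 0.068), nor with a pseudocount of 0.1 TPM (adjusted p = 0.22).

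The promoters of Plaur and F3 are shown because both genes were lower in treated Egr2MKO. Plaur, at chr7:24462233-24462482 on the plus strand, has a PU.1 match 131, an EGR match 109 and an AP-1 match 69 bases before the start, and F3, at chr3:121723287-121723536 on the plus strand, has AP-1 matches 146 and 135 bases before it and no EGR match. Capitals mark the matches, which are letters in a window and not binding. Promoters of F13a1, F7 and F10 hold none of the 5 motifs, and those of Tgm2, Plau, Thbs1 and Fn1 were not used here.
Plaur: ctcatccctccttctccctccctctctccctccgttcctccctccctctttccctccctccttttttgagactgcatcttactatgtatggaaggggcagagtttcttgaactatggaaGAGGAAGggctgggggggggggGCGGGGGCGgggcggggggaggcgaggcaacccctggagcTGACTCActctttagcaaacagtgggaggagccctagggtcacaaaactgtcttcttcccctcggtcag
F3: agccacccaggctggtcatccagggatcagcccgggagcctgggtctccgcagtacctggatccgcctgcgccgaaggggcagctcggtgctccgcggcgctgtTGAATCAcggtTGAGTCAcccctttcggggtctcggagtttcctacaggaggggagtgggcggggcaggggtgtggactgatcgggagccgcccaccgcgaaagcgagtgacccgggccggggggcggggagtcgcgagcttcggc

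Among the other genes, F7 rose at 24 hours in Egr2WT (log2 fold change 1.06, SE 0.061, adjusted p = 6.9e-08) and in Egr2MKO (log2 fold change 0.91, SE 0.061, adjusted p = 2.2e-07) from a lower start, 39.0 and 43.1 TPM against 30.2 and 29.8 TPM, and the responses did not differ beyond their spread (difference -0.14, adjusted p = 0.34). Without Egr2WT basal replicate 1 the rise in Egr2WT was 0.99. F10 reached 146 and 137 TPM in Egr2WT and 79.8 and 78.0 TPM in Egr2MKO at 24 hours, from 51.1 and 55.6 TPM and 44.7 and 44.3 TPM, and its response was smaller in Egr2MKO (difference -0.58, SE 0.11, adjusted p = 0.005). Both genes thus rose in both genotypes. Plau rose further in Egr2MKO, from 19.4 and 17.1 TPM to 41.6 and 61.1 TPM at 24 hours (log2 fold change 1.42, SE 0.15, adjusted p = 1.3e-05), than in Egr2WT (log2 fold change 0.59, SE 0.15, adjusted p = 0.01; adjusted p 0.054 and 0.075 without 24-hour or basal replicate 1), with a difference in response of 0.84 (adjusted p = 0.022) that did not pass without either Egr2WT 24-hour library, Egr2WT basal replicate 2 or Egr2MKO basal replicate 2 (adjusted p 0.058 to 0.089). F13a1 was lower in Egr2MKO at 6 hours, at 2.91 and 3.32 TPM against 10.7 and 8.07 TPM (difference -1.32, SE 0.17, adjusted p = 0.00017). That difference was -1.25 without 6-hour replicate 1 and -1.40 without replicate 2, both of which stood apart. Its Egr2MKO libraries already lay lower at 0 hours (8.63 to 10.3 TPM against 14.9 to 18.4 TPM) and 1 hour (8.72 to 8.89 TPM against 15.5 to 18.7 TPM). They also did at 24 hours (6.04 to 6.45 TPM against 7.42 to 10.2 TPM).

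Fn1 and Serpinb2 moved with the Egr2MKO libraries that stood apart, as did Thbs1 at 6 hours. At 1 hour Fn1 was at 72.9 and 0.529 TPM and Serpinb2 at 7.32 and 0.774 TPM in Egr2MKO replicates 1 and 2. At 6 hours Fn1 was at 28.8 and 159.9 TPM, Serpinb2 at 9.88 and 74.4 TPM and Thbs1 at 5.28 and 24.3 TPM. In each case the library with more Alox15 and Prg4 was the one with more Fn1, and their part in these results was not tested. With all libraries, Serpinb2 was called between the genotypes at 6 hours (difference 4.44, SE 0.76, adjusted p = 0.0016), and without 1-hour replicate 1 and 6-hour replicate 2, a choice made after seeing the data, the difference was 3.04 (adjusted p = 6e-05). The 6-hour library that remained was itself among those with Alox15, and with only the 2 groups of this comparison in the fit the adjusted p was 0.053. In Egr2WT Serpinb2 stayed at 0.209 to 1.14 TPM. Fn1 in Egr2MKO rose at 6 hours (log2 fold change 4.63, SE 1.3, adjusted p = 0.017), and without 6-hour replicate 2 it did not pass (3.42, adjusted p = 0.13), nor without basal replicate 1 or 2 (adjusted p = 0.05 and 0.11).

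At 24 hours no such library was present, but the test takes 1 spread for a gene from all times. Fn1 rose in Egr2WT from 0.801 and 1.15 TPM to 31.1 and 26.3 TPM (log2 fold change 3.91, SE 1.3, adjusted p = 0.038) and was at 2.78 and 1.07 TPM and 4.7 and 3.86 TPM in Egr2MKO. The rise in Egr2WT did not pass without any 1 of 10 libraries, these being the 24-hour and basal libraries of both genotypes and the 1-hour libraries of Egr2WT (adjusted p 0.05 to 0.13), and had an adjusted p of 1e-06 without the 3 that stood apart. The 24-hour groups of the genotypes did not overlap, and the difference was -2.49 with an adjusted p of 0.15 with all libraries and 2.8e-05 without 1-hour replicate 1 and both 6-hour replicates, a choice made after seeing the data. The difference in response, -3.00, likewise had an adjusted p of 0.34 and 0.00039. Thbs1 fell in Egr2WT at 6 hours, from 20.7 and 23.4 TPM to 5.27 and 5 TPM (log2 fold change -1.91, SE 0.46, adjusted p = 0.0088), a call lost without basal replicate 2 (adjusted p = 0.053), and it was at 11.2 and 10.0 TPM at 24 hours. In Egr2MKO it went from 15.2 and 14.4 TPM to 5.15 and 5.22 TPM at 24 hours (log2 fold change -1.35, SE 0.46, adjusted p = 0.045). That fall did not pass without any 1 of 12 libraries, the 8 of Egr2WT and the basal and 24-hour ones of Egr2MKO (adjusted p 0.057 to 0.15), and had an adjusted p of 3.4e-06 without the 3.

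**Figure D4:**
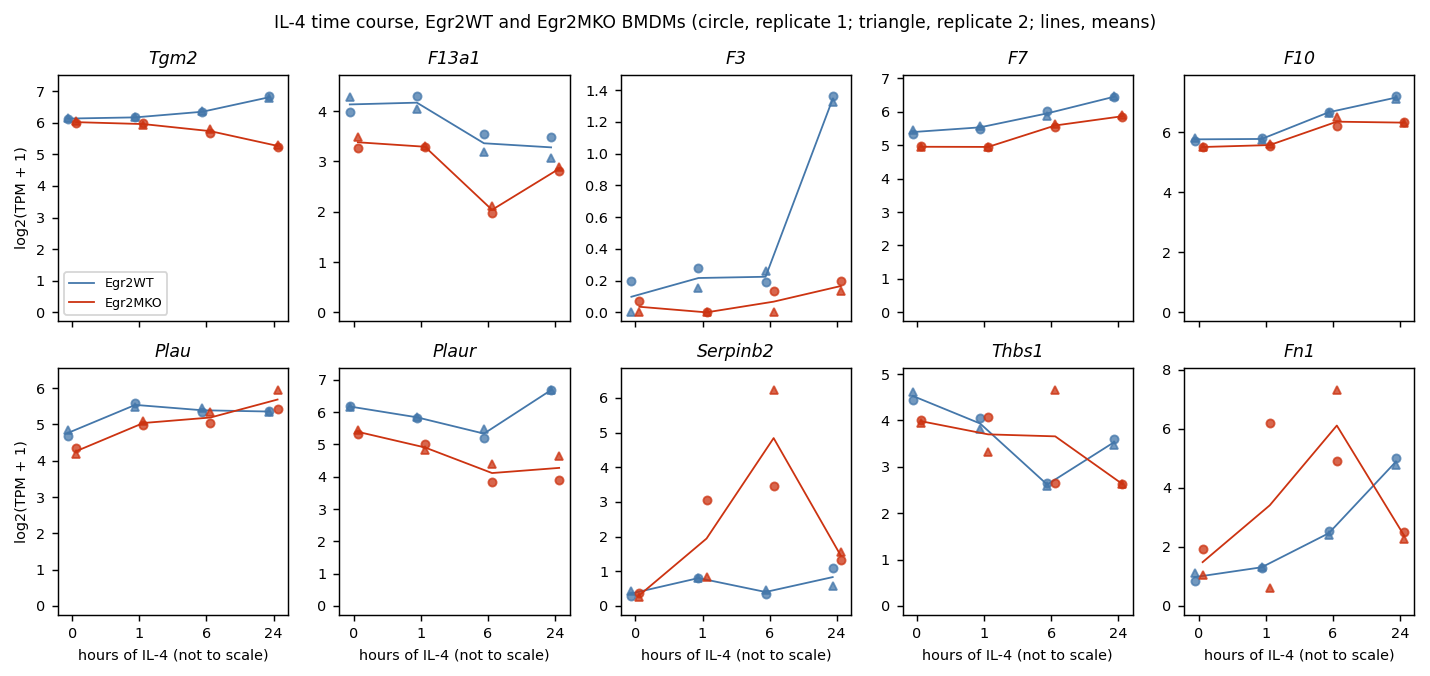
Expression of the 10 genes as log2(TPM + 1) at 0, 1, 6 and 24 hours of IL-4 in Egr2WT (blue) and Egr2MKO (red), 2 libraries per time as a circle and a triangle, with a line through the means. Tgm2 and Plaur part at 24 hours and F3 is highest in the 24-hour Egr2WT points (1.57 and 1.51 TPM), while Fn1 and Serpinb2 in Egr2MKO differ widely between the replicates at 1 and 6 hours.

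Cells of F1 mice hold both alleles in one nucleus, and the comparison asks whether a difference between strains follows the allele. The values are allele-weighted scores whose depth is unknown, without counts per allele, and there is no test over 2 libraries, so each library is given. Whether the scores share 1 scale between libraries is unknown. The ratio of the alleles within a library does not rest on that, but levels of 1 allele before and after IL-4 do, and they are given as values only. In F1 C57xSPRET, Fn1 and Thbs1 were the genes with a ratio over 2-fold in 1 direction in all 4 libraries, on the log2(value + 1) scale. For Fn1 the C57 allele was at 2.75 and 2.56 and the SPRET allele at 9.76 and 9.51 under basal conditions, and at 52.5 and 55.3 and 167 and 129 after IL-4. Log2 ratios of C57 over SPRET were -1.52 and -1.56 under basal conditions and -1.65 and -1.21 after IL-4, beside -4.52 and -4.65 between the parental strains. The SPRET allele was higher in each library, by less than between the parents of the 5 strains, and both alleles were higher after IL-4.

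Thbs1 had the SPRET allele higher as well, at 10.9 and 9.44 against 2.55 and 1.88 under basal conditions and 3.81 and 3.5 against 0.741 and 0.74 after IL-4. Its ratios, -1.74 and -1.86 and then -1.47 and -1.37, went against the parents of the 5 strains (1.67 and 3.68), whereas SPRET was the higher parent in the basal libraries of the time course. Both alleles were lower after IL-4. With 5 added to each value in place of 1, neither gene kept 2-fold in every library.

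For Tgm2 the C57 allele was at 15.8 and 16.6 under basal conditions and at 15.9 and 16.7 after IL-4, so that its libraries overlapped, while the SPRET allele was at 5.83 and 5.46 and then 13.6 and 12.4. Its ratio was 1.29 and 1.45 under basal conditions and 0.21 and 0.40 after IL-4. F10 had the C57 allele at 14.7 and 15.3 and the SPRET allele at 7.24 and 6.5, and after IL-4 at 61.6 and 57.7 and 48.6 and 45.6. The ratios of F10 were 0.93 and 1.12, then 0.34 and 0.34, and those of F7 0.88 and 0.54, then 0.71 and 0.47, with both alleles of both genes higher after IL-4. F13a1 was called between the parents under basal conditions and Serpinb2 after IL-4. They were at no more than 0.419 and 0.23 for either allele in the F1 cells, so that no allele comparison was made. The gene lengths listed with these scores are those of whole genes, for F13a1 182035 bases against 3860 bases in the 5 strains. Whether length lowered the scores is unknown, so they are not set against TPM as levels. Plau and Plaur had ratios within 2-fold in every library. So did F3, but its scores were low, so that adding 1 understates its ratios. The C57 allele of F3 was at 0.282 and 0.871 and the SPRET allele at 1.35 and 2.24 under basal conditions. After IL-4 they were at 2.73 and 1.2 and at 3.79 and 1.98, so the SPRET allele was the higher in each library. In F1 C57xNOD, 7 of the 10 genes were listed at 0 in every allele column, as were 78.9% to 83.6% of all genes per column, and nothing was compared there.

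**Figure D5:**
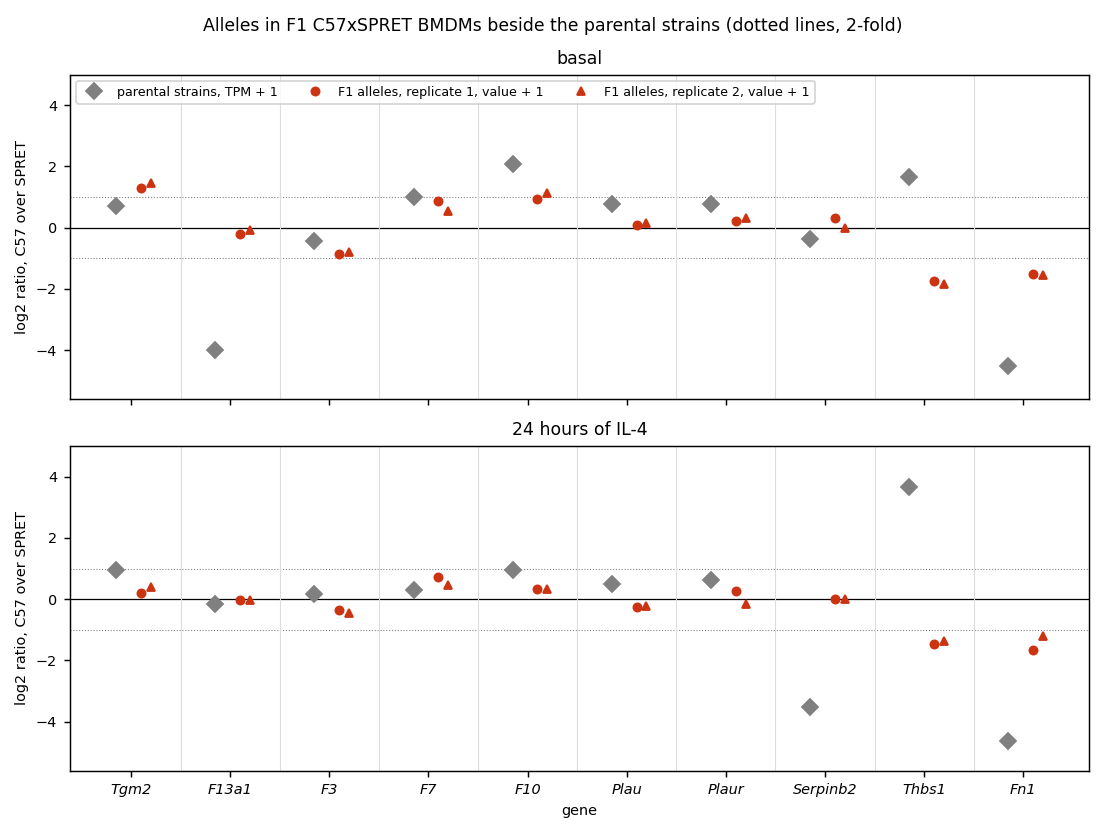
Log2 ratio of C57 over SPRET for each gene in basal cells and in cells given IL-4 for 24 hours, with the ratio between the parental strains (TPM + 1) as a grey diamond and that between the alleles in each F1 library (value + 1) as a red circle or triangle. For Fn1 both lie below 0, and for Thbs1 the parental ratio lies above 0 and the F1 ratios below it.

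The wider pathway was described through 58 other genes of clotting, anticoagulation, fibrinolysis, thrombospondins and transglutaminases, of which 22 were expressed enough to be tested in the 5 strains. In C57, 2 of the 22 were called, both higher (3.80% of all genes tested), in PWK 2, both higher (2.08%), in SPRET 2, 1 in each direction (3.94%), and in BALB and NOD none, with 8 and 11 passing an adjusted p under 0.05 (9 and 11 without adjustment). Cd36, a scavenger receptor that binds thrombospondin 1, was called in C57, PWK and SPRET, at 90.0, 89.5 and 89.4 TPM in basal SPRET and 366, 385 and 391 TPM after IL-4 (log2 fold change 2.07, SE 0.084, adjusted p = 1.6e-16). It also rose in BALB and NOD, from 54.7 to 77.7 TPM to 94.7 to 139 TPM, under 2-fold. Tgm1, the transglutaminase of the skin barrier, went from 1.2 and 1.62 TPM to 6.48, 6.01 and 6 TPM in PWK (log2 fold change 1.58, SE 0.16, adjusted p = 2.8e-08) and from 2.22, 3.54 and 3.62 TPM to 7.43, 7.76 and 7.56 TPM in C57 (log2 fold change 1.08, and 0.91 without basal replicate 1). Procr, the receptor of protein C, fell in SPRET from 12.5, 10.999 and 11.5 TPM to 3.69, 4.67 and 4.85 TPM (log2 fold change -1.23, SE 0.078, adjusted p = 1.3e-12) and less in C57 and NOD. At 24 hours of the Egr2 table, 1 of 20 tested was called between the genotypes (4.55% of all genes tested). It was Procr, at 72.0 and 70.6 TPM in Egr2WT and 14.6 and 14.1 TPM in Egr2MKO (difference -2.24, SE 0.049, adjusted p = 5.7e-11). Procr was already lower in Egr2MKO under basal conditions (118 and 120.1 TPM in Egr2WT against 57.1 and 55.9 TPM). Both genotypes were lower at 24 hours than under basal conditions, Egr2MKO by more (difference in response -1.18, SE 0.069, adjusted p = 2.2e-06). The fibrinogen chains (Fga, Fgb and Fgg) and prothrombin (F2), which the liver makes, were not expressed enough to be tested in the 5 strains.

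Over the 10 group means of the 5 strains, the genes whose pattern was most like that of F10 were Mmp12 (r = 0.94), Lgals3 (r = 0.92) and Cst7 (r = 0.92), and those most like Serpinb2 were Cxcl3 (r = 0.97), Ube2e1 (r = 0.93) and Cebpa (r = 0.93). For F13a1 they were Mbp (r = 0.97), Fbxl5 (r = 0.95) and Rassf2 (r = 0.93), for Fn1 Sdsl (r = 0.98), Meaf6 (r = 0.98) and Lap3 (r = 0.97) and for Tgm2 Rnaseh2b (r = 0.95), Slamf8 (r = 0.93) and Apbb2 (r = 0.91). These are Pearson correlations chosen as the highest of 4745 genes with a group mean of at least 10 TPM that varied over 2-fold, and the 10 points share libraries between genes and strains between points.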

How the data were processed

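RNA-seq of mouse bone marrow-derived macrophages was analysed from the processed tables. Per the paper's methods, the authors built strain genomes from mm10 with MMARGE (1.0), aligned each library to its own genome using STAR (2.5.3), shifted the positions to mm10 and quantified exons with HOMER (4.11.1). The deposited expression values are TPM (transcripts per 1e6), 1 column for each library. The deposited F1 tables hold a score per allele, which the authors made by scaling each transcript's read count with the ratio of reads that overlap strain variants and a factor of 10. Per the paper's methods, transcripts to which no reads were assigned in an allele were left out, although the tables list genes at 0, and the depth behind a value is unknown. Columns with fold changes and p-values from the authors' own DESeq2 comparisons were not used, nor was a table of human macrophages.

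Groups came from the sample labels. A gene was tested if 2 or more libraries had 1 TPM or more, which left 11907, 12088 and 12079 in the 3 tables. In each table limma (3.58.1, R 4.3.3) was fitted to log2(TPM + 1) with 1 mean per group over all libraries, eBayes with trend, and Benjamini-Hochberg adjustment over all genes tested. A gene was called at over 2-fold and an adjusted p under 0.05. The fit was tested on made data with known changes. No library held the values of another. The labels do not say which libraries share an animal, so p-values measure the spread between these libraries. Depth was 4.69 M to 32.9 M tags, which limits what can be said of genes under about 1 TPM.

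The 10 genes were taken by symbol, and of 58 other pathway genes those called in at least 3 strains in 1 direction were named or, with fewer than 4 of these, up to 4 called in any strain with the largest mean change. The members, lists, markers and comparisons were chosen with earlier results of these data known. Alternatives were a pseudocount of 0.1 or 5 TPM, no filter or one of 5 TPM, median-ratio scaling, quantile normalization, a replicate block, a robust prior, fits of the compared groups alone, and leaving out each library. Fits without the Egr2MKO libraries that stood apart were added after seeing the data. Promoter letters were RefSeq on GRCm38.p6, and 6 of the 10 genes had an entry.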

Additional observations from a re-analysis of the deposited data

Results flagged for a closer look

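Responses that differed between strains or genotypes by the test of the difference itself are given here together, as differences of log2 fold changes, with limma's adjusted p under 0.05 and over 2-fold in each case. Of the 5 strains, the log2 fold change of Thbs1 lay below that of C57 in BALB (-2.84), NOD (-1.32), PWK (-2.25) and SPRET (-2.01). The gene fell in BALB, PWK and SPRET, and its change in NOD did not pass. All 4 comparisons share the C57 libraries, in which Thbs1 rose after 24 hours of IL-4, whereas it fell in the C57 libraries of the time course. Fn1 responded less in NOD (-2.05) and PWK (-1.76). In SPRET the difference from C57 was -3.82 for F13a1, 1.12 for F10 and 3.17 for Serpinb2.

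Between SPRET and C57 of the time course, the response of Serpinb2 differed by 3.00 at 1 hour and 2.88 at 6 hours, that of F10 by 1.42 at 6 hours and 1.80 at 24 hours, that of Thbs1 by -1.84 at 6 hours, and those of F13a1 and F7 by -3.21 and 1.13 at 24 hours. F13a1 and F10 thus passed in both experiments at 24 hours with the same sign, and Serpinb2 did not pass at 24 hours of the time course. Between Egr2MKO and Egr2WT at 24 hours, the response differed by -1.43 for Tgm2, -1.12 for F3 and -1.63 for Plaur, all lower in Egr2MKO.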

How the results depend on the processing

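Of 350 values of the 10 genes in the comparisons, 286 kept their direction and their side of the threshold under every alternative other than leaving out a library, and 286 did so when any 1 library was left out. With a pseudocount of 0.1 TPM, the calls of response differences from C57 went from 9 to 15 and those of the pathway genes from 6 to 10, and with 5 TPM the pathway calls went to 3 and the Egr2WT and Egr2MKO response calls from 12 to 6. In F1 C57xSPRET, adding 5 in place of 1 to each value left 0 of 2 genes with 2-fold in every library, by construction a compression of low values. Response differences between the Egr2 genotypes went from 3 to 5 without the Egr2MKO libraries at 1 hour (replicate 1) and 6 hours (replicate 2), a choice made after seeing the data.

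Among values with an adjusted p under 0.05 in at least 1 of the fits compared, directions turned for 4. They turned for F10 between basal NOD and C57 (-0.048, and 0.35 with median-ratio scaling), for the difference in Fn1 response between SPRET and C57 in the 5 strains (0.13, and -1.02 with a pseudocount of 0.1 TPM) and at 24 hours of the time course (-0.21, and 0.28 with 5 TPM), and for Thbs1 in Egr2MKO at 6 hours (-0.33, and from -1.33 to 0.68 when 1 library was left out, 0.68 being without Egr2MKO IL-4 6-hour replicate 1 and -1.33 without replicate 2). For these 4 the cause was not tested. Median-ratio scaling moved the median of all genes by up to 0.33 on the log2 scale, in basal NOD.

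With 1 library left out, calls ranged from 20 to 20 for the 24-hour responses of the 5 strains, 16 to 17 for basal strain differences, 9 to 10 for response differences from C57, 19 to 21 for time-course responses, 7 to 8 for their differences, 9 to 13 for the Egr2WT and Egr2MKO responses, 5 to 9 between the genotypes, 2 to 5 for their response differences, 5 to 6 for the pathway genes and 2 to 2 for the F1 alleles. In a group left with 1 library, that library was assumed to vary like the other groups.

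Over pairs of libraries with the same replicate number, deviations had a mean correlation of 0.013, 0.030 and -0.0046 in the 5 strains, time course and Egr2 tables. Single pairs ranged from -0.13 to 0.33, -0.14 to 0.27 and -0.14 to 0.057. The pairs include libraries of different strains or genotypes, which cannot share an animal. The mean therefore cannot decide whether basal and IL-4 libraries of a strain or genotype were paired. With the replicate block, the counts were as without it except for 11 in place of 12 calls among the Egr2WT and Egr2MKO responses, where Thbs1 in Egr2MKO at 24 hours no longer passed (adjusted p = 0.056). Depth limits F3 and the lowest values of Serpinb2, Thbs1 and Fn1, which rest on few reads, and the 2-library groups limit the Egr2 results most.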
